A study of Homo sapiens with 14 samples.

Results

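The genes described here are the EGFR receptor family members EGFR, ERBB2 and ERBB3, their ligands AREG, EREG, HBEGF and TGFA, and the inhibitors ERRFI1, LRIG1 and SPRY4. They were chosen by gene name from the count table, 10 genes of 58780, and all 10 passed the count filter that left 21910 genes for testing. Nascent transcription was measured by PRO-seq, which labels RNA still being made by engaged RNA polymerase in permeabilized cells, so a value here reflects reads from nascent RNA and not the stock of messenger RNA. The cells were A549, an established human lung adenocarcinoma line.

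There were 14 libraries in 7 groups of 2. All groups, the untreated one included, received 0.01% DMSO. Untreated cells carried the 15 min label. GSK591, an inhibitor of the arginine methyltransferase PRMT5, and MS023, an inhibitor of type I arginine methyltransferases, were each given at 1 µM for 15 min or for 3 h. In the remaining 2 groups, 1 µM GSK591 or 1 µM MS023 was combined with 100 nM dexamethasone, a synthetic glucocorticoid, for 15 min. No group received dexamethasone alone, so every value for dexamethasone is its effect beside an inhibitor. No untreated group was labelled 3 h, so for the 3 h groups the inhibitor and the longer time cannot be told apart from the untreated comparison. The labels do not say whether the 2 libraries of a group came from separate cultures, so p-values measure the spread between these libraries, which may be technical.

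Receptors of the EGFR family sit in the plasma membrane of epithelial cells, bind growth factors of the EGF family, pair with one another and phosphorylate their own tails, which feeds the RAS-ERK and PI3K routes. Ligands such as amphiregulin are made as membrane-bound precursors and are released by proteases. Activity is held back by proteins that the same cells make: ERRFI1 (also called MIG6) binds the kinase domain of the receptors and blocks it, LRIG1 promotes receptor loss, and SPRY4 acts downstream on RAS-ERK signalling. Dexamethasone acts through the glucocorticoid receptor, a transcription factor, and ERRFI1 is a known glucocorticoid-responsive gene in lung epithelial cells.

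Total counts ran from 5768312 to 9606938 per library, of which mitochondrial genes took 39.8% to 57.99%. The 2 libraries of GSK591 plus dexamethasone differed most in that share, at 48.23% and 57.99%. The part of this difference in the values of that group was not tested. The 10 genes had 30 to 875 counts each per library, so their number limits the precision of the lower genes. The epithelial keratins KRT7, KRT8 and KRT18 had medians of 476, 307 and 141 CPM (reads of a gene scaled to the size of its library) over the 14 libraries, while the epithelial markers EPCAM and CDH1 were low, at medians of 2.82 and 2.20 CPM. The 3 leukocyte markers summed to 2.36 to 3.96 CPM, nearly all of it CD14, with CD3E at 0 in all 14 libraries and PTPRC at 0 in 10. The 3 endothelial markers summed to 0.236 to 1.84 CPM, and the 4 fibroblast markers to 5.42 to 8.79 CPM, nearly all of it COL1A1.

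Dexamethasone beside either inhibitor raised the nascent reads of ERRFI1 2.73- to 3.35-fold within 15 min. In each of the 4 comparisons with dexamethasone, ERRFI1 had the largest change of the 10 genes. It also raised LRIG1 beside MS023, and LRIG1 was higher in both dexamethasone groups than in untreated cells. AREG rose beside MS023 and ERBB3 fell beside GSK591. None of the 10 genes was called for either inhibitor alone against untreated cells, at 15 min or at 3 h. Of all genes tested, 0.306% and 0.183% were called at 15 min of GSK591 and MS023, and 11% and 7.63% at 3 h. With so few genes called at 15 min, that count of 0 does not set the 10 genes apart. EGFR, ERBB2, EREG, HBEGF, TGFA and SPRY4 were called in none of the 15 comparisons. Each gene has 1 count per library, so a change in only a part of a gene cannot be seen apart. The genes span from 9.88 kb (AREG) to 192.6 kb (EGFR), and the part of span in what was called at 15 min was not tested. In bulk libraries such as these, more cells transcribing a gene and more transcription per cell cannot be told apart.

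The start regions of 4 genes are shown because the dexamethasone results turn on ERRFI1, LRIG1 and AREG, and because EREG, a neighbour of AREG, was called in no comparison. Each run holds 300 bases of GRCh38.p14 from RefSeq, 250 before and 50 after a transcription start, written 5′ to 3′ on the strand of the gene. ERRFI1 is on chromosome 1 (window chr1:8026260-8026559, minus strand), LRIG1 on chromosome 3 (chr3:66501072-66501371, minus strand), AREG on chromosome 4 (chr4:74444886-74445185, plus strand) and EREG on chromosome 4 (chr4:74364895-74365194, plus strand). Capitals mark matches to TATANA, the core of a TATA box, and to TGACGTCA, the cyclic AMP response element.
ERRFI1: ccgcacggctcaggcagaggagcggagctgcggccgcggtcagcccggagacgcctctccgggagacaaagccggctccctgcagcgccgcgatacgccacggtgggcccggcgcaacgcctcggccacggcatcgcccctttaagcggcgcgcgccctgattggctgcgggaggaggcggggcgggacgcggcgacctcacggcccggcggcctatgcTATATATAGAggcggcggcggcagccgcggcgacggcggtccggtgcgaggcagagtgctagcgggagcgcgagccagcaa
LRIG1: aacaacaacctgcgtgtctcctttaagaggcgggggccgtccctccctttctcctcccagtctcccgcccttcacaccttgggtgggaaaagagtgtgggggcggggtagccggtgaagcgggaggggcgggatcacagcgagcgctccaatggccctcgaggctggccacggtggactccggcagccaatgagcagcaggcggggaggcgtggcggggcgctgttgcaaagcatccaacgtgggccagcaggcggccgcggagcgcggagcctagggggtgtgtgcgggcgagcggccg
AREG: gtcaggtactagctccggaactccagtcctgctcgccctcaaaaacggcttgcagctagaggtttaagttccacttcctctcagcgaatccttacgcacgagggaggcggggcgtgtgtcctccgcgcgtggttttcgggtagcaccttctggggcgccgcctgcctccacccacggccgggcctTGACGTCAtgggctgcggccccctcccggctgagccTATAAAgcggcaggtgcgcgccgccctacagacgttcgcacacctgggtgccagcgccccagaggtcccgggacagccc
EREG: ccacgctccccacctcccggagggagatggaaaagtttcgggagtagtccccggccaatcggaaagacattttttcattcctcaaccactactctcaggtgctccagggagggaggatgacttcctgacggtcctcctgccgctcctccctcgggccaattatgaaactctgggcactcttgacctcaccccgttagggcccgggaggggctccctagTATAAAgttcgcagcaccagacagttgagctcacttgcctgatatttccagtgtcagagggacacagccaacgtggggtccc

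A TATA match lay upstream of the start in ERRFI1 (overlapping matches at positions -31, -29 and -27 from the start), in AREG (position -29) and in EREG (position -32). AREG also held a cyclic AMP response element at position -65. In the LRIG1 window shown, which is 1 of several for that gene, neither motif was found. A window was found for 9 of the 10 genes, 14 windows in all because some genes have several starts, and ERBB3 had none in the table. The glucocorticoid receptor palindrome, GNACANNNTGTNC, matched none of the 14 windows, on either strand, and 0.389% of 34943 RefSeq windows of the same length. TATANA was present in 4 of the 14 windows and in 19.1% of all windows, TGACGTCA in 1 and in 1.84%, and the AP-1 motif TGANTCA in 3 and in 7.72%. The AP-1 matches lay in windows of EGFR, ERBB2 and LRIG1, the last not the window shown. The starts of the EGFR and LRIG1 windows with these matches lay 90818 and 95496 bases from the annotated gene starts. That EGFR window also held TATANA. Some windows of LRIG1 overlap, so the 14 are not all separate stretches. These matches are descriptions of letters in short windows and were not tested as binding sites.

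In untreated cells the 10 genes covered a wide range of levels per kilobase of exon, a scale used here to set genes beside each other. The feature counted is not stated, so division by exon length may not match how reads were counted. ERRFI1 (7.61 ± 0.03 CPM per kb, SD, n = 2) and ERBB2 (7.44 ± 0.16) were highest, at percentiles 81.2 and 80.8 of all tested genes. SPRY4 stood at 5.38 ± 0.53, AREG at 4.25 ± 0.09, EGFR at 3.93 ± 0.01, HBEGF at 3.25 ± 0.07, TGFA at 3.01 ± 0.49 and EREG at 2.49 ± 0.38 CPM per kb. LRIG1 (1.35 ± 0.01) and the receptor ERBB3 (0.768 ± 0.092, percentile 15.2) were lowest. On this scale ERBB2 read higher than EGFR, and AREG was the highest of the 4 ligands. In CPM ERBB2 was also above EGFR (76.8 against 49.2). AREG, however, was then the lowest of the 4 ligands (7.00 CPM, against 9.82 for HBEGF, 14.25 for EREG and 14.9 for TGFA), so its rank depends on the scale.

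**Figure D1:**
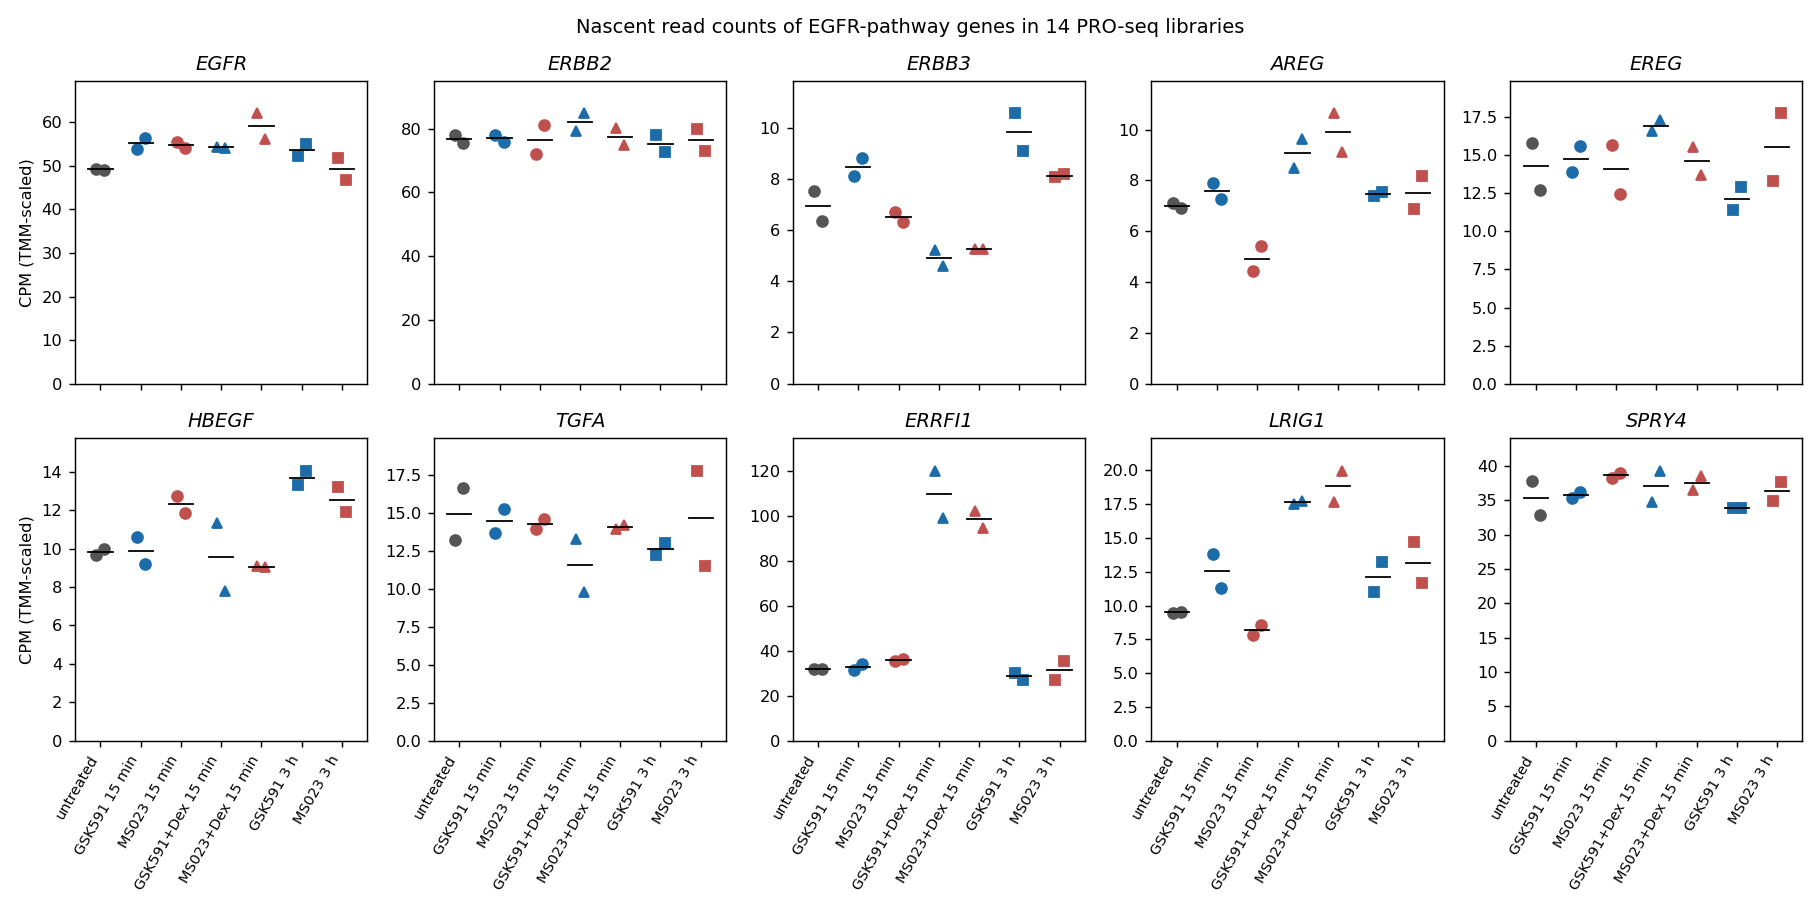
Normalised read count (CPM, vertical axis from 0) of each of the 10 genes in the 14 libraries, by group along the horizontal axis; each point is 1 library and the line is the mean of the 2. ERRFI1 stood between 94.9 and 120.4 CPM in the 4 libraries with dexamethasone and at or below 36.5 CPM in the other 10.

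Among the receptors, EGFR, the receptor for AREG, EREG, HBEGF and TGFA, varied little. EGFR (chromosome 7, 55019021 to 55211628, plus strand) had 49.3 and 49.2 CPM in untreated cells, 53.8 and 56.5 with GSK591 at 15 min, and 55.5 and 54.2 with MS023 at 15 min. With dexamethasone it had 54.3 and 54.2 CPM beside GSK591 and 62.0 and 56.2 CPM beside MS023, and at 3 h 52.2 and 55.0 CPM with GSK591 and 51.8 and 46.7 CPM with MS023. Both untreated libraries lay below every treated library except replicate 2 of MS023 at 3 h. The difference of EGFR between MS023 plus dexamethasone and untreated cells was 0.26 ± 0.10 on the log2 scale (SE, edgeR adjusted p = 0.0995), which did not pass the threshold of 0.05. When the fit held only the 2 groups compared, the same difference was 0.26 with an adjusted p of 0.0481.

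ERBB2, the family member without a known ligand of its own, was the steadiest of the 10 genes. ERBB2 (chromosome 17, 39687914 to 39730426, plus strand) ran from 72.0 to 84.8 CPM over all 14 libraries, and each group overlapped its neighbour when the groups were ordered by mean. Its differences ran from -0.03 to 0.09 on the log2 scale over the 13 comparisons between groups, each with an SE near 0.10. Exons of MIEN1 and PGAP3 on the other strand cover 7.41% of ERBB2 exon length, and without stated strand counting their reads cannot be told apart.

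ERBB3, a receptor with a weak kinase that signals in pairs with the others, had the lowest counts. ERBB3 (chromosome 12, 56076799 to 56103505, plus strand) had 7.53 and 6.35 CPM in untreated cells, 8.12 and 8.82 with GSK591 at 15 min, and 6.70 and 6.30 with MS023 at 15 min. It had 5.23 and 4.59 CPM with GSK591 plus dexamethasone, 5.26 and 5.25 CPM with MS023 plus dexamethasone, 10.6 and 9.07 CPM with GSK591 at 3 h, and 8.07 and 8.17 CPM with MS023 at 3 h. The 4 libraries with dexamethasone were the 4 lowest, and those of GSK591 at 3 h the 2 highest. ERBB3 fell by 0.78 ± 0.22 on the log2 scale when dexamethasone was added to GSK591 (edgeR adjusted p = 0.0377). That call rests on 30 to 74 counts per library: it was lost without any 1 of the 4 libraries compared (adjusted p from 0.062 to 0.248) and in DESeq2 (adjusted p = 0.174). Beside MS023 the difference was -0.31 ± 0.22 (adjusted p = 0.474), and the effects beside the 2 inhibitors differed by -0.47 ± 0.32 (adjusted p = 0.654).

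Of the ligands, only AREG (amphiregulin) was called in any comparison. AREG (chromosome 4, 74445134 to 74455009, plus strand) had 7.10 and 6.90 CPM in untreated cells, 7.89 and 7.27 with GSK591 at 15 min, and 4.43 and 5.40 with MS023 at 15 min. It had 8.49 and 9.64 CPM with GSK591 plus dexamethasone, 10.6 and 9.14 CPM with MS023 plus dexamethasone, 7.39 and 7.56 CPM with GSK591 at 3 h, and 6.87 and 8.17 CPM with MS023 at 3 h. The MS023 libraries at 15 min were the 2 lowest of the 14, and the 4 dexamethasone libraries the 4 highest. AREG rose by 1.02 ± 0.21 on the log2 scale when dexamethasone was added to MS023 (edgeR adjusted p = 0.000846), and its difference beside GSK591 was 0.25 ± 0.20 (adjusted p = 0.583). The 2 effects differed by -0.77, with a 95% interval from -1.36 to -0.17, which did not pass the adjustment over all genes (adjusted p = 0.263).

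The MS023 libraries at 15 min, the baseline of that rise, also read lower for AREG than untreated cells, by -0.53 ± 0.22 on the log2 scale (edgeR adjusted p = 0.521), which was not called. Against untreated cells, MS023 plus dexamethasone read 0.50 ± 0.19 higher (adjusted p = 0.114) and GSK591 plus dexamethasone 0.37 ± 0.20 higher (adjusted p = 0.338), neither of them called. Without replicate 1 of MS023 at 15 min the rise of AREG beside MS023 was 0.87 with an adjusted p of 0.0743. Those 2 baseline libraries had the lowest mean share of mitochondrial counts (42.2% ± 3.3, against 51.3% ± 2.4 with dexamethasone, SD, n = 2), and the part of that share in the result was not tested. With scaling to library size alone, which leaves the mitochondrial counts in the scale, the rise was 0.85 ± 0.23 (adjusted p = 0.0135).

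EREG, which encodes epiregulin, lies 56.4 kb from AREG on chromosome 4 and on the same strand. EREG (74365143 to 74388751) had 15.7 and 12.5 CPM with MS023 at 15 min, 15.5 and 13.7 with MS023 plus dexamethasone, and 15.8 and 12.7 in untreated cells. It had 13.9 and 15.6 CPM with GSK591 at 15 min, 16.6 and 17.3 CPM with GSK591 plus dexamethasone, 11.4 and 12.9 CPM with GSK591 at 3 h, and 13.3 and 17.7 CPM with MS023 at 3 h. Each group overlapped its neighbour in the order of means. The difference of EREG when dexamethasone was added to MS023 was 0.04, with a 95% interval from -0.30 to 0.37, and whether it differs from that of AREG was not tested.

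HBEGF, the heparin-binding ligand, was higher with GSK591 at 3 h without passing the threshold. HBEGF (chromosome 5, 140332843 to 140346631, minus strand) had 9.68 and 9.96 CPM in untreated cells, 13.3 and 14.1 with GSK591 at 3 h, and 13.2 and 11.9 with MS023 at 3 h. At 15 min it had 10.6 and 9.18 CPM with GSK591, 12.8 and 11.9 CPM with MS023, 11.3 and 7.80 CPM with GSK591 plus dexamethasone, and 9.11 and 9.02 CPM with MS023 plus dexamethasone. The libraries of GSK591 at 3 h did not overlap those of any other group. The difference from untreated cells was 0.48 ± 0.17 on the log2 scale at 3 h of GSK591 (edgeR adjusted p = 0.0609) and 0.36 ± 0.17 at 3 h of MS023 (adjusted p = 0.234). The first of these passed the threshold without either library of GSK591 plus dexamethasone (adjusted p = 0.0367 and 0.0351), libraries that enter only through the shared fit. When dexamethasone was added to MS023, HBEGF read -0.45 ± 0.18 (adjusted p = 0.125), which passed only with library-size scaling (-0.62, adjusted p = 0.0487).

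TGFA, the ligand TGF-alpha, varied nearly as much between replicates (mean coefficient of variation within groups 12.1%) as over all 14 libraries (14.5%). TGFA (chromosome 2, 70447280 to 70554193, minus strand) ran from 9.79 CPM in a library of GSK591 plus dexamethasone to 17.8 CPM in a library of MS023 at 3 h, whose partner library had 11.5 CPM. Its differences between groups ran from -0.36 to 0.06 on the log2 scale, with SEs near 0.18.

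Summed per kilobase, the 4 ligands stood at 13.0 ± 0.1 CPM per kb in untreated cells, 14.0 ± 0.7 with GSK591 plus dexamethasone and 14.4 ± 0.9 with MS023 plus dexamethasone (SD, n = 2). The 3 receptors stood at 12.1 ± 0.3, 12.8 ± 0.3 and 12.8 ± 0.7 in the same groups. The 3 inhibitors went from 14.3 ± 0.6 to 34.4 ± 3.1 and 31.9 ± 0.8. Per kilobase, the inhibitors thus exceeded the receptors and ligands together in the dexamethasone libraries. In CPM the order was the reverse in those libraries, so it depends on the scale.

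Most of the rise in the sum of the 3 inhibitors came from ERRFI1. ERRFI1 (chromosome 1, 8004404 to 8026308, minus strand) had 31.9 and 31.8 CPM in untreated cells, 31.7 and 34.0 with GSK591 at 15 min, and 35.7 and 36.5 with MS023 at 15 min. It had 120.4 and 99.2 CPM with GSK591 plus dexamethasone, 102.2 and 94.9 CPM with MS023 plus dexamethasone, 30.4 and 27.2 CPM with GSK591 at 3 h, and 27.3 and 35.5 CPM with MS023 at 3 h. All 4 dexamethasone libraries lay far above the other 10, and the 2 dexamethasone groups overlapped each other.

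ERRFI1 rose by 1.74 ± 0.11 on the log2 scale, 3.35-fold, when dexamethasone was added to GSK591 (edgeR adjusted p = 5.523e-14). With MS023 as the partner the rise was 1.45 ± 0.11, or 2.73-fold (adjusted p = 1.464e-12). The difference between the 2 effects was 0.29, with a 95% interval from -0.03 to 0.62 (adjusted p = 0.536). Against untreated cells ERRFI1 was higher by 1.79 ± 0.11 with GSK591 plus dexamethasone (adjusted p = 1.897e-14) and by 1.63 ± 0.11 with MS023 plus dexamethasone (adjusted p = 4.153e-14), comparisons that share the untreated libraries. In the authors' deposited table, which comes from DESeq2, these 2 differences were 1.79 and 1.63, with adjusted p = 3.374e-17 and 1.563e-14. Neither inhibitor alone moved ERRFI1 past the threshold: the differences from untreated cells were 0.04 and 0.18 at 15 min and -0.14 and -0.03 at 3 h for GSK591 and MS023. Exons of AL034417.4 on the other strand cover 3.7% of ERRFI1 exon length.

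LRIG1, a transmembrane protein that limits receptor levels, was the other inhibitor with high values in every dexamethasone library. LRIG1 (chromosome 3, 66378797 to 66501263, minus strand) had 9.46 and 9.53 CPM in untreated cells, 13.8 and 11.3 with GSK591 at 15 min, and 7.78 and 8.56 with MS023 at 15 min. It had 17.5 and 17.8 CPM with GSK591 plus dexamethasone, 17.6 and 20.0 CPM with MS023 plus dexamethasone, 11.0 and 13.3 CPM with GSK591 at 3 h, and 14.7 and 11.6 CPM with MS023 at 3 h. The 4 dexamethasone libraries were the 4 highest and did not overlap any other group, and the MS023 libraries at 15 min were the 2 lowest.

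LRIG1 was higher than in untreated cells by 0.89 ± 0.17 on the log2 scale with GSK591 plus dexamethasone (edgeR adjusted p = 0.000532) and by 0.99 ± 0.16 with MS023 plus dexamethasone (adjusted p = 4.076e-05). When dexamethasone was added to MS023 it rose by 1.21 ± 0.17 (adjusted p = 2.371e-06). Beside GSK591 the difference was 0.49 ± 0.16 (adjusted p = 0.0884), and the difference between the 2 effects was -0.72, with a 95% interval from -1.20 to -0.24 (adjusted p = 0.156). In the authors' deposited table LRIG1 did not pass the threshold in the 2 dexamethasone comparisons with untreated cells, with log2 differences of 0.88 and 0.98 and adjusted p = 0.129 and 0.0512. LRIG1 and SLC25A26, on the other strand, share 12.9% of LRIG1 exon length, which cannot be told apart without stated strand counting.

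LRIG1 also had a called difference over time. At 15 min GSK591 read 0.63 ± 0.18 above MS023 (edgeR adjusted p = 0.0918), with no overlap of libraries. From 15 min to 3 h of MS023, LRIG1 rose by 0.71 ± 0.18 (adjusted p = 0.0062), against a difference of -0.06 ± 0.17 over the same interval of GSK591 (adjusted p = 0.900). The 2 time effects differed by -0.77 ± 0.25 (adjusted p = 0.188). The rise with MS023 was lost without replicate 1 of MS023 at 15 min (0.64, adjusted p = 0.118), without replicate 1 of MS023 at 3 h (0.52, adjusted p = 0.182) and with library-size scaling (0.56, adjusted p = 0.0673). The rise beside MS023 with dexamethasone and the rise over time use the same MS023 libraries at 15 min as baseline.

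SPRY4, a Sprouty protein that dampens RAS-ERK signalling and is itself a target of that route, was called in no comparison. SPRY4 (chromosome 5, 142310427 to 142326455, minus strand) ran from 32.8 CPM in an untreated library to 39.3 CPM in a library of GSK591 plus dexamethasone, and each group overlapped its neighbour in the order of means. Its differences ran from -0.11 to 0.13 on the log2 scale, with SEs near 0.11.

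**Figure D2:**
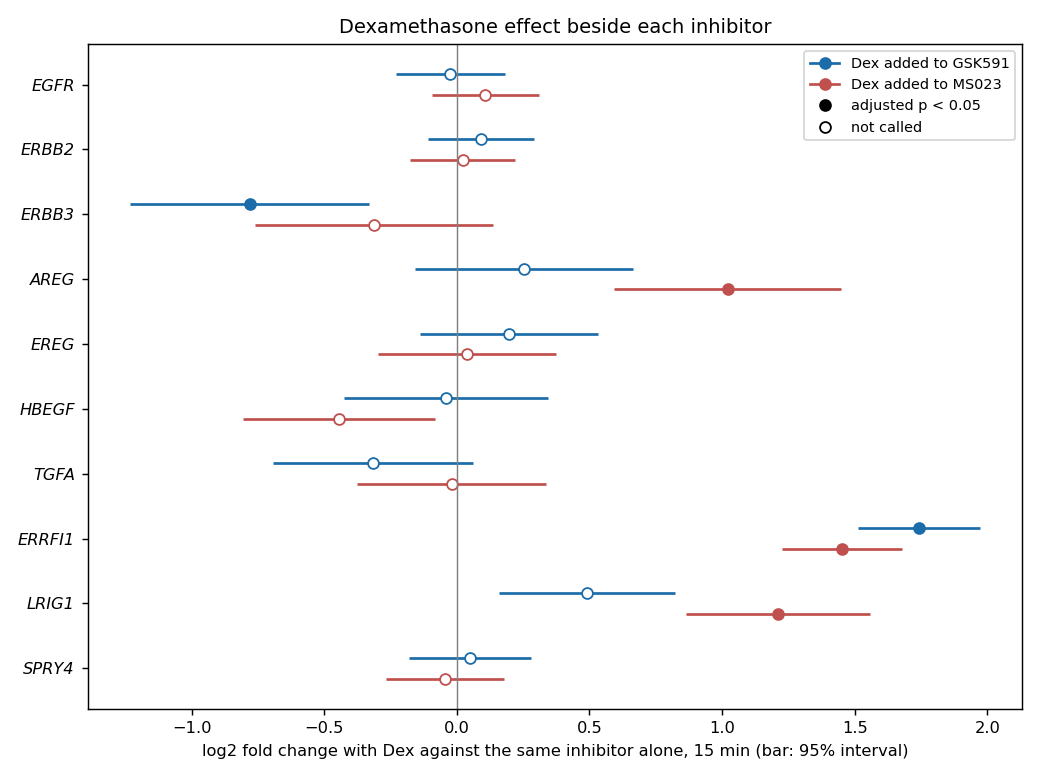
log2 fold change of each gene (horizontal axis) when dexamethasone was added to GSK591 (blue) or to MS023 (red) at 15 min; bars are 95% intervals and filled points passed an adjusted p of 0.05. ERRFI1 stands at 1.74 and 1.45, LRIG1 and AREG are filled beside MS023, and ERBB3 is filled and below 0 beside GSK591.

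The counts of the 10 genes can be read against the share of all genes called. When dexamethasone was added to GSK591, 2 of the 10 were called, where 3.7% of the 21910 genes were. ERRFI1 rose, as did 1.43% of all genes, and ERBB3 fell, as did 2.27%. When it was added to MS023, 3 rose (ERRFI1, LRIG1, AREG) and none fell, where 8.97% of genes were called and 5.9% were called higher. The difference between the 2 dexamethasone effects was called for 0 of the 10 by edgeR and by DESeq2, where 1.15% of genes were called. It had an unadjusted p under 0.05 for 2 (AREG and LRIG1), as for 10.8% of genes. Against untreated cells, ERRFI1 and LRIG1 rose with GSK591 plus dexamethasone (5.85% of all genes called, 3.21% called higher) and with MS023 plus dexamethasone (7.66% called, 4.99% higher). The median difference of the 10 genes was 0.07 beside GSK591 and 0.03 beside MS023, against -0.00 and -0.02 over all genes.

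For the inhibitors alone against untreated cells, edgeR and DESeq2 each called 0 of the 10 genes in all 4 comparisons. At an unadjusted p under 0.05 there was 1 gene at 15 min of GSK591 (LRIG1), 1 at 15 min of MS023 (AREG), 2 at 3 h of GSK591 (ERBB3 and HBEGF) and 2 at 3 h of MS023 (HBEGF and LRIG1). Over all genes 0.306%, 0.183%, 11% and 7.63% were called in these comparisons, and 6.85%, 8.08%, 23.8% and 19.9% had an unadjusted p under 0.05. Between 15 min and 3 h, GSK591 gave 0 called genes in edgeR and in DESeq2, where 6.41% of all genes were called. HBEGF had an unadjusted p under 0.05, as did 19.5% of genes. Over the same interval MS023 gave 1 (LRIG1, higher), where 12% of genes were called and 7.65% called higher. The difference between the 2 time effects was called for 0 by both tools (background 0.561%), with AREG and LRIG1 at an unadjusted p under 0.05 (background 10%).

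GSK591 and MS023 were compared directly at matched dose and time in 3 comparisons, with p-values adjusted over all genes in each. At 15 min, 0 of the 10 genes were called by edgeR or DESeq2 and 2 had an unadjusted p under 0.05 (AREG and LRIG1, both higher with GSK591). Over all genes 1.09% were called and 9.75% had an unadjusted p under 0.05. AREG was higher by 0.64, with a 95% interval from 0.19 to 1.09 (edgeR adjusted p = 0.212). At 3 h, 0 of the 10 were called by either tool and 1 had an unadjusted p under 0.05 (EREG, lower with GSK591 by -0.34, interval from -0.68 to -0.00), where 0% of genes were called and 6.02% had an unadjusted p under 0.05. In the presence of dexamethasone 0 were called and 0 had an unadjusted p under 0.05, where 0% of genes were called and 7.57% had an unadjusted p under 0.05. The difference of ERRFI1 between the compounds was then 0.16, with a 95% interval from -0.05 to 0.36, and that of LRIG1 -0.09, with an interval from -0.41 to 0.22.

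**Figure D3:**
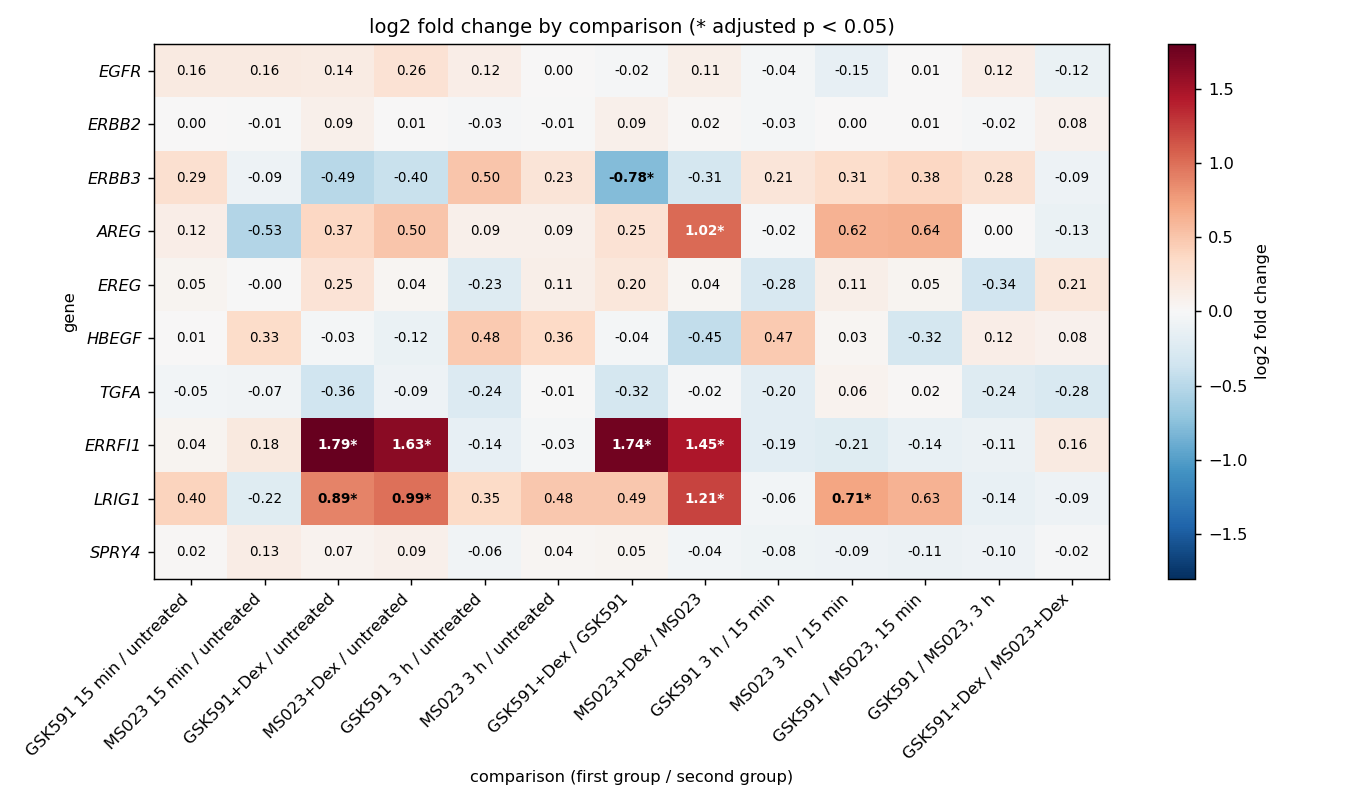
log2 fold change (colour and printed value) of the 10 genes, in rows, over the 13 comparisons between groups, in columns named as the first group over the second; an asterisk marks an adjusted p under 0.05. The asterisks fall in the rows of ERRFI1 (4), LRIG1 (4), AREG (1) and ERBB3 (1).

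Further genes of the pathway came from a list of 50, of which 44 passed the count filter. The ligands EGF, EPGN and NRG3, the receptor ERBB4, the ubiquitin ligase CBLC and SPRY3 did not. At 15 min neither inhibitor alone gave a called gene among the 44 (6 and 4 at an unadjusted p under 0.05 for GSK591 and MS023). DESeq2 also called 0 for both. In the edgeR fit, 0.306% of all genes were called at 15 min of GSK591 and 0.183% at 15 min of MS023. An unadjusted p under 0.05 was found for 6.85% and 8.08% of all genes. With so few genes called anywhere, 0 of the 44 does not set the pathway apart from other genes.

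The Sprouty genes SPRY1 and SPRY2 were called when dexamethasone was added. SPRY2 went from 15.2 ± 0.1 to 23.5 ± 0.4 CPM beside GSK591 (SD, n = 2), a rise of 0.63 ± 0.14 on the log2 scale (edgeR adjusted p = 0.00524). Beside MS023 it went from 12.6 ± 0.4 to 24.8 ± 0.2 CPM, a rise of 0.98 ± 0.14 (adjusted p = 4.007e-06). SPRY1 rose beside MS023, from 7.20 ± 0.86 to 14.7 ± 0.2 CPM, by 1.05 ± 0.18 (adjusted p = 9.645e-05). In untreated cells SPRY2 stood at 17.9 ± 2.8 and SPRY1 at 11.5 ± 0.3 CPM, in both cases a higher mean than with MS023 at 15 min. Whether these genes differ from SPRY4 was not tested.

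In all, 2 of the 44 genes rose when dexamethasone was added to GSK591 (SPRY2 and SHC1), and 6 rose and 1 fell when it was added to MS023 (LRIG3, NRG1, NRG2, PIK3CB, SPRY1 and SPRY2 up, RASA1 down). Over all genes 3.7% and 8.97% were called in these 2 comparisons, so the count beside GSK591 lay near the background. SHC1, an adaptor that links receptors to RAS, went from 60.4 ± 4.2 to 80.7 ± 0.8 CPM beside GSK591, a rise of 0.42 ± 0.10 (edgeR adjusted p = 0.0113). NRG2, a ligand of ERBB3 and ERBB4, went from 11.8 ± 0.2 to 19.1 ± 0.5 CPM beside MS023, a rise of 0.69 ± 0.16 (adjusted p = 0.00368). Against untreated cells, 2 rose with GSK591 plus dexamethasone (NRG1 and SHC1) and 5 with MS023 plus dexamethasone (LRIG3, NRG2, SHC1, SOS2 and SPRY2), where 5.85% and 7.66% of all genes were called. These counts were small and moved with the libraries used: without 1 library they ran from 0 to 2 and from 0 to 6 for the comparisons with untreated cells, from 0 to 2 for dexamethasone beside GSK591 and from 2 to 9 beside MS023. The lowest counts came without replicate 1 of the untreated cells, of GSK591 at 15 min and of MS023 at 15 min, respectively, and for GSK591 plus dexamethasone against untreated cells 0 were also called without replicate 2 of the untreated cells or replicate 1 of that group. Against untreated cells, DESeq2 called 0 and 0 and library-size scaling 0 and 0. When dexamethasone was added, library-size scaling called 5 beside GSK591 and 3 beside MS023, and DESeq2 called 2 and 4. The rises of SPRY1 and SPRY2 beside MS023 passed the threshold in every alternative run, whereas those of SPRY2 and SHC1 beside GSK591 and of NRG2 beside MS023 did not pass with library-size scaling (adjusted p = 0.121, 0.380 and 0.0713) or without replicate 1 of the same inhibitor at 15 min (adjusted p = 0.0694, 0.205 and 0.0888). SPRY2 beside GSK591 also did not pass without replicate 2 of GSK591 at 15 min (adjusted p = 0.0582), nor SHC1 without replicate 2 of GSK591 plus dexamethasone (0.0665).

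At 3 h the called genes came from several roles: ligands, a regulator of ligand shedding, signalling proteins and inhibitors. With GSK591, 9 of the 44 were higher than in untreated cells (HRAS, MAP2K1, NRG1, NRG2, PIK3CA, RHBDF2, SOS1, SOS2 and STUB1) and 1 was lower (SPRY2). With MS023, 5 were higher (NRG1, NRG2, PIK3CA, SOS2 and STUB1) and none lower. Over all genes 11% and 7.63% were called in these 2 comparisons. The median difference of the 44 genes was 0.11 at 3 h of GSK591 and 0.11 at 3 h of MS023, against -0.01 and -0.01 over all genes. SOS2, an exchange factor that loads RAS with GTP, had 8.68 ± 0.11 CPM in untreated cells, 19.2 ± 3.4 with GSK591 and 17.0 ± 1.4 with MS023, rises of 1.15 ± 0.18 and 0.96 ± 0.19 (edgeR adjusted p = 1.526e-05 and 0.000414). PIK3CA, a catalytic subunit of PI3K, went from 3.69 ± 0.51 to 6.64 ± 1.79 and 7.22 ± 1.20 CPM, rises of 0.84 ± 0.25 and 0.98 ± 0.25 (adjusted p = 0.0249 and 0.00962). STUB1, a ubiquitin ligase of the chaperone system, went from 45.3 ± 6.3 to 76.3 ± 1.9 and 66.4 ± 8.9 CPM. PIK3CA shares 35.8% of its exon length with KCNMB3 and STUB1 42.4% with JMJD8 on the other strand, so reads of these pairs cannot be told apart.

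Against 15 min of the same inhibitor, 4 of the 44 were higher at 3 h of GSK591 (PIK3CA, SHC1, SOS2 and STUB1) and none lower, where 6.41% of all genes were called. With MS023, 8 were higher (BRAF, NRG1, NRG2, PIK3CA, RHBDF1, SOS2, SPRED1 and STUB1) and 1 was lower (RASA1), where 12% of all genes were called. Without 1 library these counts ran from 1 (without replicate 2 of GSK591 at 15 min) to 4 for GSK591 and from 4 (without replicate 1 of MS023 at 15 min) to 10 for MS023. DESeq2 called 2 and 5, and library-size scaling 3 and 5. The counts at 3 h against untreated cells ran from 3 to 12 for GSK591 and from 2 to 6 for MS023 when 1 library was left out, both lowest without replicate 1 of the untreated cells, and DESeq2 called 4 and 3. RASA1 with MS023 against 15 min read -0.39 on the log2 scale, and SPRY2 with GSK591 against untreated cells -0.43. Both of these lower calls were lost in most runs that left out 1 library. The rise of SOS2 with either inhibitor at 3 h and that of STUB1 with GSK591 passed the threshold in every alternative run. Those of PIK3CA did not pass without replicate 1 of the untreated cells (adjusted p = 0.209 with GSK591 and 0.136 with MS023) or with DESeq2 (0.148 and 0.0988). The rise of PIK3CA with GSK591 was also lost without replicate 2 of the untreated cells (adjusted p = 0.0751) or of GSK591 at 3 h (0.384), and that with MS023 without replicate 1 of MS023 at 3 h (0.208). STUB1 with MS023 did not pass without replicate 2 of the untreated cells (adjusted p = 0.0756) or replicate 1 of MS023 at 3 h (0.0850). Of the 44, 0 were called for the differences between the dexamethasone effects, between the time effects, or between GSK591 and MS023 at 15 min, at 3 h and with dexamethasone. In the same order, 10, 10, 10, 0 and 2 of the 44 had an unadjusted p under 0.05. Over all genes 1.15%, 0.561%, 1.09%, 0% and 0% were called in these comparisons. The shares with an unadjusted p under 0.05 were 10.8%, 10%, 9.75%, 6.02% and 7.57%.

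**Figure D4:**
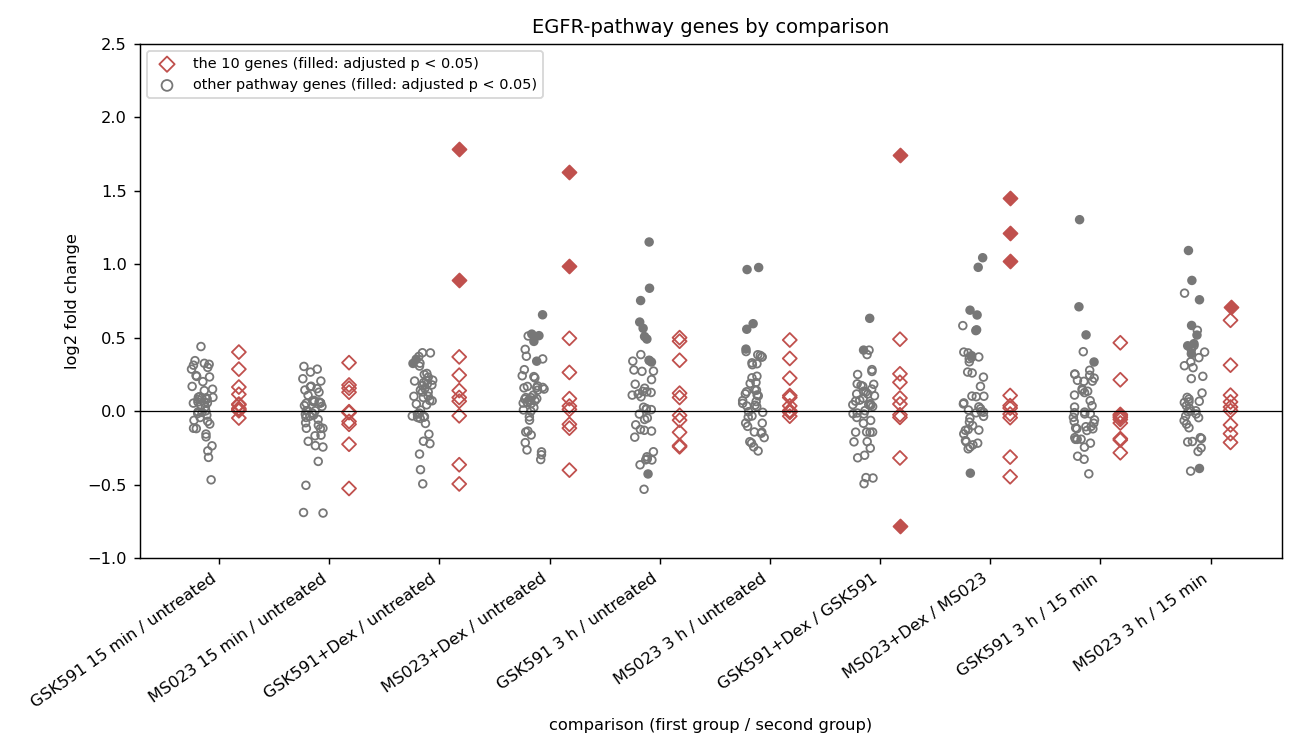
log2 fold change (vertical axis) of the 44 other pathway genes (grey circles) and of the 10 genes (red diamonds) in 10 comparisons along the horizontal axis; filled symbols passed an adjusted p of 0.05. ERRFI1 is the highest diamond in each of the 4 comparisons with dexamethasone, and the filled circles are most numerous for GSK591 at 3 h against untreated cells (10) and for MS023 at 3 h against 15 min (9).

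The 10 genes differed in which other genes read most like them over the 14 libraries. Likeness was measured by Pearson's r of log2 CPM against the 9984 genes that averaged 10 CPM or more, as a description across libraries that share groups, depth and scaling. ERRFI1 was most like MT2A (r = 0.978), CAVIN2 (r = 0.978) and TSC22D3 (r = 0.972), of which MT2A encodes a metallothionein and TSC22D3 the glucocorticoid-induced protein GILZ. LRIG1 was most like B3GNT5 (r = 0.960), AREG most like PPHLN1 (r = 0.920), ERBB3 most like TLL2 (r = 0.961) and HBEGF most like ARSA (r = 0.937). For EGFR the nearest gene was MYBL2 (r = 0.881), for SPRY4 IPO9 (r = 0.834), for TGFA PTPRK (r = 0.848) and for ERBB2 OSBPL10 (r = 0.797). Each of these genes was picked as the highest of 9984 over only 14 libraries, which by itself favours high r. How high r would run for unrelated genes was not tested. Among the 10 genes themselves, AREG and LRIG1 were closest (r = 0.854), ERRFI1 and LRIG1 had r = 0.723, and ERRFI1 and ERBB3 ran in opposite directions (r = -0.849), all over 14 libraries of which 4 carry dexamethasone.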

How the data were processed

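PRO-seq counts were available for 14 A549 libraries, 2 in each of 7 groups. The authors deposited counts per gene; per the submitters' processing notes, the build was hg38 and Subread featureCounts 2.0.1 and DESeq2 were used. The aligner, the feature counted, the strand setting and the treatment of duplicates are not given in the sources used here. Over 21910 genes, log2 of the mean CPM of the 2 untreated libraries rose with log2 exon length (slope 0.87 ± 0.01, SE). In the same fit it fell slightly with log2 gene span at fixed exon length (-0.20 ± 0.01). The authors' deposited comparison tables give DESeq2 log2 fold changes, p-values, a test score (the Wald statistic) and a mean normalised signal per gene, per the file headers, for each treated group against untreated cells; they were used only for the values credited to them.

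The counts were tested with edgeR 4.0.16 (R 4.3.3): filterByExpr, TMM scaling, 1 quasi-likelihood fit to all 14 libraries with 7 residual degrees of freedom, 15 comparisons, and Benjamini-Hochberg adjustment over all 21910 genes in each. A gene was called at an adjusted p under 0.05. CPM values are TMM-scaled, and SEs and 95% intervals come from the same fit. All 58780 gene identifiers matched GENCODE 29, and each of the 10 gene names belongs to 1 row. Library totals ranged from 5768312 to 9606938 counts, and intervals for the low genes are accordingly wide. The labels name no spike-in, so values are relative to all genes. Other pathway genes were named if they were called, had at least 2 CPM and were among the 3 largest changes in a comparison; further names complete counts. The genes and lists were chosen with earlier results of these data known. Alternatives were DESeq2 1.42.0, its size factors, library size alone, no count filter, only the groups compared, a replicate block and leaving out each library.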

Additional observations from a re-analysis of the deposited data

How the results depend on the processing

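Calls on the 10 genes were recomputed under 20 alternatives. The rises of ERRFI1 in its 4 dexamethasone comparisons, and of LRIG1 against untreated cells and beside MS023, kept their direction and stayed past the threshold in all of them, and none of the 16 fold changes of 6 of the 10 genes that passed in any fit turned direction. The other fold changes of the 10 genes were counted as called or not, and their directions were not compared. Of the further pathway genes, 44 fold changes of 18 genes were called; none turned direction, and 6 stayed past the threshold in every alternative. The number of the 10 genes called changed as follows. For GSK591 at 3 h against untreated cells it was 0, but 2 with library size alone and 1 with only the groups compared. For dexamethasone beside GSK591 it was 2, but 1 with DESeq2, 1 without the count filter and 1 with only the groups compared. For dexamethasone beside MS023 it was 3, but 4 with library size alone. For MS023 plus dexamethasone against untreated cells it was 2, but 3 with only the groups compared. For MS023 at 3 h against 15 min it was 1, but 0 with library size alone. The shares of all genes given above come from the main fit. No share is given for the alternatives, so counts under them cannot be set against a background. Leaving out each library in turn gave 0 to 1 for either inhibitor at 3 h against untreated cells, 1 to 2 for dexamethasone beside GSK591, 2 to 3 beside MS023 and 0 to 2 for MS023 at 3 h against 15 min; with fewer libraries a group holds 1, which is assumed to vary like the others. The cause of these changes was not tested. Library size alone shifted the median of all genes by up to -0.21 (dexamethasone beside GSK591), so changes under that scaling are relative to it. No pairing of libraries by replicate number was seen: over 21 pairs of groups, deviations of same-numbered libraries correlated from -0.07 to 0.10. These correlations take all tested genes together, so noise in genes with few counts could hide a weak pairing. With a replicate block, 2 genes were called beside GSK591 and 3 beside MS023, and the block changed no count of the 10 genes called in the 15 comparisons. ERBB3, AREG and LRIG1 have 30 to 175 counts per library, and EREG, HBEGF and TGFA have 51 to 163. The difference of LRIG1 for dexamethasone beside GSK591, 0.49 with an SE of 0.16, did not pass after adjustment over all genes. The part of its counts in that was not tested.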
